A study of Mus musculus with 6 samples.

Results

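Cholangiocyte and ductular reaction genes were examined in liver tumors of Prmt3f/f and Prmt3LKO mice. The set was chosen by name and holds 9 of the 34745 genes in the expression table, namely the keratins Krt7, Krt19, Krt8 and Krt18, the surface proteins Epcam and Cd24a, the transcription factor Sox9, the secreted protein Spp1 and the channel Cftr. Of these, 8 passed the filter on low counts and were tested among 13892 genes, and Cftr did not pass. RNA-seq was made from 3 tumors of Prmt3f/f mice (replicates 7, 66 and 71) and 3 tumors of Prmt3LKO mice (replicates 92, 93 and 94), with 1 library for each tumor. In Prmt3f/f mice both alleles of Prmt3, a protein arginine methyltransferase, are floxed and intact. Prmt3LKO mice carry the same floxed alleles and Alb-Cre, which is driven by the albumin promoter and deletes the gene in hepatocytes. That promoter is also active in fetal liver precursors, from which duct cells arise too, and whether duct cells of these tumors kept Prmt3 was not tested. Both groups received the carcinogen DEN at 25 mg/kg by intraperitoneal injection at 2 weeks of age and, from 6 weeks of age, the liver toxin CCl4 (10% in oil, 0.5 ml/kg, 2 injections a week), and tumors were taken at 26 weeks. No animals without this treatment and no tumor-free liver were analysed here.

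Cholangiocytes are the epithelial cells that line the bile ducts. They carry Krt7 and Krt19 in addition to Krt8 and Krt18, the keratin pair that hepatocytes make too, and they express Epcam, Sox9, osteopontin (the product of Spp1), Cd24a and the chloride channel Cftr. In injured liver, strings of duct-like cells appear around the portal tracts. This is known as the ductular reaction, and hepatocytes under injury or during carcinogenesis can also switch on some of these genes, Sox9, Spp1 and Cd24a among them.

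Between 18440244 and 27976598 reads were counted per tumor. Alb, a hepatocyte gene, took 11% to 16.1% of them, and the summed level of 15 hepatocyte genes lay between 140930 and 199853 CPM (the count of a gene relative to the TMM-scaled size of its library) in Prmt3f/f tumors and between 152691 and 166094 CPM in Prmt3LKO tumors. Prmt3 itself was at 6.60, 8.49 and 10.2 CPM in Prmt3f/f tumors 7, 66 and 71 and at 2.80, 2.03 and 3.82 CPM in Prmt3LKO tumors 92, 93 and 94, so every library was on the side that its label gives. The log2 fold change of Prmt3 was -1.55 (standard error 0.29, adjusted p = 0.592 in edgeR's quasi-likelihood test). The deleted gene itself thus did not reach an adjusted p under 0.05 in this fit. A count of 3 in a tumor corresponds to 0.105 to 0.171 CPM. The labels do not say whether the tumors of a group came from separate mice, and p-values measure the spread between these tumors. In bulk tumor RNA, fewer cells of a type and less RNA per cell cannot be told apart.

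None of the 9 genes separated the genotypes. The quasi-likelihood test of edgeR called 0 of 8 (adjusted p under 0.05 and a change of 2-fold or more) and 0% of all genes tested, with a smallest adjusted p of 0.0879. DESeq2, the exact test of edgeR and limma-voom also called 0 of them. In the quasi-likelihood test Spp1 was the 1 member with an unadjusted p under 0.05, against 6.56% of all genes tested (4.37% lower and 2.20% higher in Prmt3LKO tumors). The groups overlapped for all 9 members, whereas they did not overlap for 12.2% of all genes tested (6.60% lower and 5.56% higher in Prmt3LKO tumors). The fitted change was below 0 for 6 of the 8 and above 0 for 2, with a median log2 fold change of -0.64 beside 0.0004 over all genes. The tumor that was highest differed between genes. Of the 9 genes, 5 were highest in Prmt3f/f tumor 7, 3 in Prmt3LKO tumor 94 and 1 in Prmt3f/f tumor 66.

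**Figure D1:**
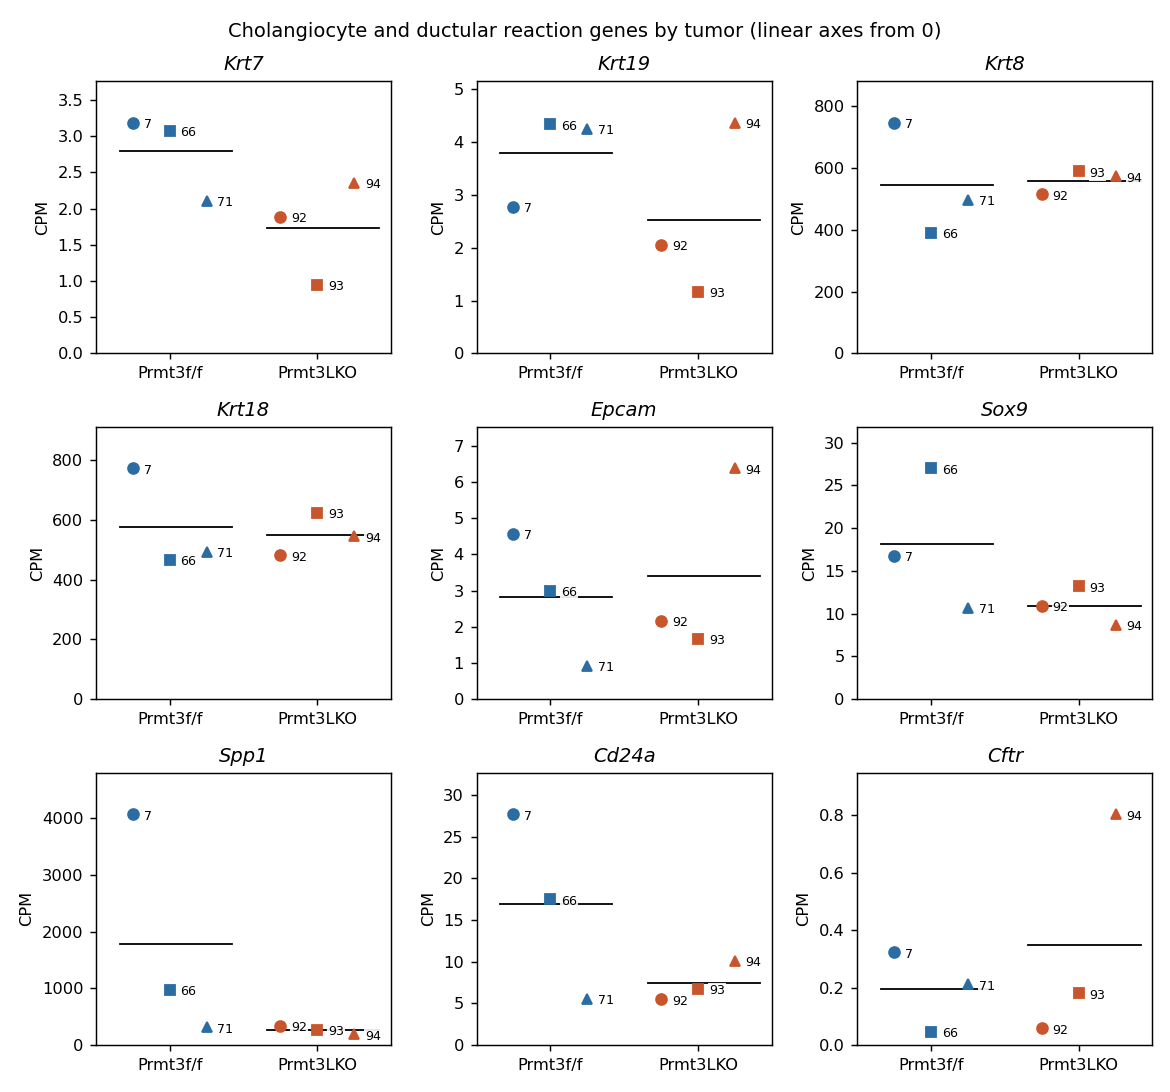
Level of each of the 9 genes in CPM (linear axes from 0) in the 3 Prmt3f/f tumors (blue) and the 3 Prmt3LKO tumors (orange), with the replicate number beside each point and the group mean as a line. No gene has groups that do not overlap, and Prmt3f/f tumor 7 lies at 4075 CPM for Spp1 while the other 5 tumors lie between 185 and 978 CPM.

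The promoters of Spp1, the gene that differed most between tumors, and of Krt8 and Krt18, the pair whose levels ran most closely together, are shown so that their sequences can be set beside these values. RefSeq promoters on GRCm38.p6 were found for 6 of the 9 genes. Each line below is the 250 bases before the RefSeq start of the gene, 5′ to 3′ on the strand of the gene, at chr5:104434861-104435110 on the plus strand for Spp1, chr15:102004343-102004592 on the minus strand for Krt8 and chr15:102027966-102028215 on the plus strand for Krt18. Capitals mark matches to a short motif on either strand.
Spp1: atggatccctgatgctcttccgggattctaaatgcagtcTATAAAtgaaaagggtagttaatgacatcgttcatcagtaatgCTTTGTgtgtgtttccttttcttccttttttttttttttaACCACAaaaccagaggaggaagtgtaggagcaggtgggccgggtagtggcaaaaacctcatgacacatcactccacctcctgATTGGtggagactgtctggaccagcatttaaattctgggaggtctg
Krt8: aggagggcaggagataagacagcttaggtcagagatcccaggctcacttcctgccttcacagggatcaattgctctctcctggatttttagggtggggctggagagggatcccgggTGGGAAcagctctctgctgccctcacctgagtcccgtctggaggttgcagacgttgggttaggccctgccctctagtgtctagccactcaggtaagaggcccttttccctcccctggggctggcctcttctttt
Krt18: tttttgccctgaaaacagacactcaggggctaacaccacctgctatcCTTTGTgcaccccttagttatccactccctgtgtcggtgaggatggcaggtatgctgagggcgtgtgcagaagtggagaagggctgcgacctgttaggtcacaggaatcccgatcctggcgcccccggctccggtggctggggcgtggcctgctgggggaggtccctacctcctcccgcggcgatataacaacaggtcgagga

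The motif searched for RUNX factors was TGTGGT, and that for SOX factors was ACAAAG. RBPJ, the DNA-binding partner of Notch, was represented by the letters TGGGAA, TEAD, the partner of YAP, by the letters GGAATG, and AP-1 by the letters TGANTCA. The box bound by NF-Y was searched as CCAAT and the core promoter box as TATAAA. The matches shown do not overlap one another. In the Spp1 promoter 1 match each was found for the TATAAA letters at position -211, SOX at -168, RUNX at -128 and the NF-Y box at -46, counted from the RefSeq start to the first base of the match on the printed strand. Of 32851 promoters of this length, 12.4% hold the first of these, 16.5% the SOX letters, 14.0% the RUNX letters and 33.8% the letters of the NF-Y box. Krt8 held 1 match, for RBPJ at -134, which 21.6% of promoters hold. Krt18 held 1 match, for SOX at -203. Krt8 and Krt18 shared none of the motifs. The promoters of Krt7, Epcam and Cftr held 0 matches to any of the motifs. A match is a description of letters and not a bound site, and binding was not measured.

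Krt8 and Krt18 are the keratins of simple epithelia and assemble with each other into filaments. Krt8 (ENSMUSG00000049382, chr15:101996711-102004342 on GRCm38) was at 747, 389.9 and 497 CPM in Prmt3f/f tumors 7, 66 and 71 and at 515, 589 and 573 CPM in Prmt3LKO tumors 92, 93 and 94. The Prmt3f/f tumors held both the highest and the lowest value, and the Prmt3LKO tumors lay between them. The log2 fold change was 0.037 (standard error 0.26, adjusted p = 0.996 in edgeR's quasi-likelihood test).

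Krt18 (ENSMUSG00000023043, chr15:102028216-102032026) was at 773, 467 and 493 CPM in Prmt3f/f tumors and at 482, 625 and 545 CPM in Prmt3LKO tumors, in the same order of replicates. Again tumor 7 was highest, tumor 66 was lowest and the groups overlapped. Its log2 fold change was -0.069 (standard error 0.24, adjusted p = 0.988 in the same test). For both genes the direction rested on single tumors. Without Prmt3f/f tumor 7 the log2 fold change was 0.33 for Krt8 and 0.19 for Krt18, without Prmt3f/f tumor 66 it was -0.15 and -0.20, and for Krt18 it was 0.02 without Prmt3LKO tumor 92. Krt8 was at -0.023 without Prmt3f/f tumor 71.

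Per gene length, Krt8 stayed below Krt18 in every tumor. The ratio of their FPKM (counts divided by gene length and by the total count) was 0.750, 0.648 and 0.782 in Prmt3f/f tumors and 0.830, 0.731 and 0.816 in Prmt3LKO tumors. These values overlapped between the groups, with means of 0.727 ± 0.0703 and 0.792 ± 0.0538 (SD, n = 3 each) and p = 0.300 in an exact two-sided permutation test, or 0.600 after adjustment over the 4 ratios of keratins that were compared. The distance between the profiles of Krt8 and Krt18 over the 6 tumors, a root mean square difference of centered log2 CPM, was 0.12, the smallest of all pairs of members. The genes lie 23874 bases apart on chromosome 15.

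Krt7 and Krt19, the keratins that part bile duct cells from hepatocytes, were low in all 6 tumors. Krt7 (ENSMUSG00000023039, chr15:101411043-101430313) was at 3.19, 3.08 and 2.11 CPM in Prmt3f/f tumors 7, 66 and 71 and at 1.89, 0.947 and 2.36 CPM in Prmt3LKO tumors 92, 93 and 94, from 21 to 69 reads. Prmt3LKO tumor 94 lay above Prmt3f/f tumor 71, which is the only overlap. The log2 fold change was -0.69 (standard error 0.39, adjusted p = 0.834 in edgeR's quasi-likelihood test), and it lay at -0.39 without Prmt3LKO tumor 93 and at -0.98 without Prmt3LKO tumor 94.

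Krt19 (ENSMUSG00000020911, chr11:100140810-100148665) was at 2.77, 4.34 and 4.25 CPM in Prmt3f/f tumors and at 2.06, 1.17 and 4.37 CPM in Prmt3LKO tumors. The single highest value belonged to Prmt3LKO tumor 94, and the other 2 Prmt3LKO tumors lay below all Prmt3f/f tumors. The log2 fold change was -0.58 (standard error 0.47, adjusted p = 0.912 in the same test). It became -1.23 without tumor 94 and -0.23 without Prmt3LKO tumor 93. The ratio of Krt7 to Krt19 on the FPKM scale was between 0.135 and 0.312 over the 6 tumors, and its values overlapped between the groups (0.213 ± 0.0906 and 0.205 ± 0.0526, SD, n = 3 each, exact two-sided permutation p = 1). Against the keratins of all liver epithelium, Krt8 exceeded Krt7 on the FPKM scale by a ratio of 603 to 1122 in Prmt3f/f tumors and 1156 to 2959 in Prmt3LKO tumors, groups that did not overlap. By exact permutation, two-sided, p was 0.1, which is the floor for groups of 3, and 0.400 after adjustment over the 4 ratios. The nearest values, 1122 in Prmt3f/f tumor 71 and 1156 in Prmt3LKO tumor 94, rest on 60 and 47 reads of Krt7. Krt18 was not set against Krt7, nor Krt8 against Krt19, so the gap is shown for this pair only. The ratio of Krt18 to Krt19 overlapped between the groups, at 179 to 465 and 208 to 888. The size of each ratio depends on the gene lengths behind the FPKM, which are not given. Another length would scale a ratio alike in all tumors. By CPM, Krt7 was above Krt19 in Prmt3f/f tumor 7 (3.19 against 2.77) and below it in the rest.

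Mesothelium, the cover of the liver surface, makes Krt7 and Krt19 as well as Krt8 and Krt18. The summed level of 8 mesothelial genes was 3.00, 27.7 and 27.6 CPM in Prmt3f/f tumors 7, 66 and 71 and 3.54, 5.68 and 12.1 CPM in Prmt3LKO tumors 92, 93 and 94. Within each group the order of Krt19 matched this sum only in part, since Prmt3f/f tumor 7 was lowest and Prmt3LKO tumor 94 highest in both, but Prmt3LKO tumor 93, lowest in Krt19, had a higher sum than tumor 92. Krt7 was highest in Prmt3f/f tumor 7, where the sum was lowest of all. None of the 8 genes was at 0 in all tumors. Msln, which encodes mesothelin, was at 0.369 CPM in Prmt3f/f tumor 7 and between 0.857 and 8.26 CPM in the other 5, and 0 of the 6 genes tested had an unadjusted p under 0.05. The part of mesothelium in the keratin levels was not tested.

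Epcam (ENSMUSG00000045394, chr17:87635979-87651106) encodes the epithelial cell adhesion molecule of cholangiocytes and liver progenitor cells. It was at 4.57, 2.99 and 0.914 CPM in Prmt3f/f tumors 7, 66 and 71 and at 2.17, 1.67 and 6.38 CPM in Prmt3LKO tumors 92, 93 and 94. Both groups held a high and a low tumor, and the highest value of all was 6.98 times the lowest. The log2 fold change was 0.28 (standard error 0.67, adjusted p = 0.984 in edgeR's quasi-likelihood test). It turned to -0.55 without Prmt3LKO tumor 94 and to -0.15 without Prmt3f/f tumor 71, and rose to 0.81 without Prmt3f/f tumor 7.

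Gut epithelium is another source of Epcam. In the list of 12 stomach and intestine genes, Cdx2, Gkn1, Gkn2 and Muc2 were at 0 in all tumors, and the summed level was 43.2 to 116 CPM in Prmt3f/f tumors and 56.8 to 84.8 CPM in Prmt3LKO tumors, most of it Fabp2 at 35.5 to 90.8 CPM. Vil1, a protein of microvilli, was at 5.28 CPM in Prmt3LKO tumor 94 and at 0.457 to 2.21 CPM in the other 5 (log2 fold change 2.19, standard error 0.70, adjusted p = 0.646 in the same test). In 7 genes of lung epithelium, Sftpc, Scgb1a1, Scgb3a2 and Nkx2-1 were at 0, and the sums were 0.746 to 1.79 and 0.406 to 1.86 CPM.

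Cd24a (ENSMUSG00000047139, chr10:43579169-43584262) encodes a small mucin-like surface protein of progenitor and tumor cells. Its level was 27.7, 17.5 and 5.52 CPM in Prmt3f/f tumors and 5.49, 6.72 and 10.1 CPM in Prmt3LKO tumors. Prmt3f/f tumors 7 and 66 lay above all Prmt3LKO tumors, and Prmt3f/f tumor 71 lay among them. The log2 fold change was -1.18 (standard error 0.53, adjusted p = 0.769 in edgeR's quasi-likelihood test). Tumor 7 held 38.0% of the summed level of the 6 tumors, where an equal share is 16.7%, and without it the log2 fold change was -0.64. Leaving out Prmt3f/f tumor 71 instead brought the log2 fold change to -1.60.

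Cd24a is also carried by B cells, neutrophils and red cell precursors. The B cell sum of 7 genes was 8.12 to 9.28 CPM in Prmt3f/f tumors and 5.38 to 8.26 CPM in Prmt3LKO tumors. For 8 neutrophil genes, Ly6g among them at or under 3 counts in every tumor, the sum was 15.7 to 28.1 and 7.04 to 9.38 CPM. All 5 that were tested had an unadjusted p under 0.05 and a lower level, beside 4.37% of all genes tested. These 5 also lay lower in every Prmt3LKO tumor, beside 6.60% of all genes tested. Tumor 7, highest in Cd24a, had the highest neutrophil sum, but tumor 66, next in Cd24a, had the lowest of the Prmt3f/f tumors. Of 6 erythroid genes, the 4 globin genes lay lower in every Prmt3LKO tumor, as 6.60% of all genes tested did. The sum of the 6 was 82.5 to 140.1 and 67.0 to 75.2 CPM. Within Prmt3f/f tumors this sum ran against Cd24a, at 82.5, 109.8 and 140.1 CPM in tumors 7, 66 and 71. Of this sum Alas2, which is not a globin gene, held 13.3, 27.5 and 54.6 CPM. In Prmt3LKO tumors 92, 93 and 94 Alas2 was at 43.2, 18.2 and 55.9 CPM. The globin gene Hbb-bs was at 40.2, 47.4 and 46.0 against 16.9, 27.3 and 11.3 CPM. The part of B cells, neutrophils and red cell precursors in the level of Cd24a was not tested.

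Sox9 (ENSMUSG00000000567, chr11:112782224-112787760), the transcription factor of duct cells and of hepatocytes that take on duct features, was at 16.8, 27.0 and 10.7 CPM in Prmt3f/f tumors 7, 66 and 71. In Prmt3LKO tumors 92, 93 and 94 it was at 10.9, 13.2 and 8.70 CPM. Prmt3f/f tumors 7 and 66 were above every Prmt3LKO tumor and Prmt3f/f tumor 71 was below 2 of them. Its log2 fold change of -0.73 (standard error 0.33, unadjusted p = 0.0622, adjusted p = 0.774 in edgeR's quasi-likelihood test) was -0.33 without Prmt3f/f tumor 66. Tumor 66 held 30.9% of the summed level.

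Spp1 (ENSMUSG00000029304, chr5:104435118-104441050) encodes osteopontin, a secreted phosphoprotein of duct cells that binds integrins and Cd44, and it is the gene whose promoter is printed first above. It was at 4075, 978 and 309.7 CPM in Prmt3f/f tumors 7, 66 and 71 and at 339, 265 and 185 CPM in Prmt3LKO tumors 92, 93 and 94. Tumor 7 stood alone, tumor 66 came second, and Prmt3LKO tumor 92 lay above Prmt3f/f tumor 71, so that the groups overlapped. The group means were 1788 ± 2009 and 263 ± 77.2 CPM (SD, n = 3 each), and the SD of the Prmt3f/f tumors exceeded their mean.

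The log2 fold change of Spp1 was -2.77 (standard error 0.84, unadjusted p = 0.0118, adjusted p = 0.620 in edgeR's quasi-likelihood test), and the exact two-sided permutation p was 0.200. Tumor 7 alone held 66.2% of the summed level, tumor 66 held 15.9%, and each of the other 4 held between 3.00% and 5.51%. Leaving out tumor 7 brought the log2 fold change to -1.30, while leaving out any of the others kept it between -3.26 and -2.56. Over the 6 tumors Spp1 spanned 4.46 on the log2 scale, a wider range than 99.4% of all genes tested, for which the median was 0.76.

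Osteopontin is also made by macrophages and by kidney tubules. The summed level of 12 macrophage genes was 1094, 1374 and 736 CPM in Prmt3f/f tumors and 679, 625 and 751 CPM in Prmt3LKO tumors. Of these genes 6 had an unadjusted p under 0.05, all lower in Prmt3LKO tumors, beside 4.37% of all genes tested, and 0 passed adjustment. The macrophage sum was highest in tumor 66, as were Gpnmb (67.7 CPM, against 3.55 to 10.7 CPM in the other 5) and Trem2 (15.4 CPM, against 1.04 to 4.52 CPM), both markers of lipid-loaded macrophages, whereas Spp1 was highest in tumor 7. Their part in the level of Spp1 was not tested. Kidney genes, 16 in all with 3 tested, had sums of 3.45 to 4.67 CPM in Prmt3f/f tumors and 10.4 to 13.9 CPM in Prmt3LKO tumors. The part of kidney cells in the level of Spp1 was not tested either.

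Cftr (ENSMUSG00000041301, chr6:18170687-18322768), the chloride channel at the luminal side of cholangiocytes, had 7, 1 and 6 reads in Prmt3f/f tumors 7, 66 and 71 and 1, 4 and 16 reads in Prmt3LKO tumors 92, 93 and 94. Prmt3f/f tumor 66 and Prmt3LKO tumor 92 were under 3 counts, and tumor 94, the highest, was also highest for Epcam and Krt19. The gene did not pass the filter, and a difference was not detectable at this depth. Without the filter its log2 fold change was 0.82 (adjusted p = 0.888 in edgeR's quasi-likelihood test). Pancreatic ducts share Cftr, Krt19 and Sox9 with bile ducts. A total of 12 pancreatic acinar genes without Cela1, which liver tumors of both groups expressed at 17.3 to 52.5 CPM, had 82 reads in Prmt3LKO tumor 92 and 4 to 15 reads in the other 5, and tumor 92 was not highest for any of the 9 members.

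By the deposited FPKM the 9 genes fell into tiers. The gene lengths behind these values are not given, and the order of the genes depends on them. In Prmt3f/f tumors the mean FPKM was 417 ± 132 for Krt18, 339 ± 387 for Spp1 and 306 ± 110.0 for Krt8 (SD, n = 3). The ranges of these 3 genes overlapped. A lower tier held Cd24a at 9.42 ± 6.33, Sox9 at 4.39 ± 1.88, Krt19 at 1.63 ± 0.354 and Epcam at 1.40 ± 0.926 FPKM. Cd24a and Sox9 overlapped in range, as did Krt19 and Epcam. Krt7 at 0.327 ± 0.0689 FPKM and Cftr at 0.0185 ± 0.0135 FPKM lay below all of them on this scale.

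In Prmt3LKO tumors the order was Krt18 (392 ± 69.5 FPKM), Krt8 (308 ± 34.7), Spp1 (48.4 ± 13.2), Cd24a (4.07 ± 1.31), Sox9 (2.63 ± 0.631), Epcam (1.65 ± 1.25), Krt19 (1.07 ± 0.693), Krt7 (0.198 ± 0.0787) and Cftr (0.0324 ± 0.0370). By these means Spp1 stood below Krt8, and Epcam above Krt19, unlike in Prmt3f/f tumors. The higher mean of Spp1 there rested on tumor 7, with 781 FPKM against 426 FPKM of Krt8. In Prmt3f/f tumors 66 and 71 Spp1 was at 178 and 58.6 FPKM and Krt8 at 211 and 280.0 FPKM. On this scale Spp1 lay below Krt8 in these tumors too. By CPM, which does not divide by length, Spp1 was above Krt8 in tumor 66 (978 against 389.9). In tumor 71 Spp1 was below Krt8 by CPM as well (309.7 against 497). In Prmt3LKO tumors Spp1 reached 59.9 FPKM at most and Krt8 was at least at 271 FPKM, so their ranges were apart, while those of Epcam and Krt19 overlapped. Krt8 and Krt18 overlapped in range in both groups.

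**Figure D2:**
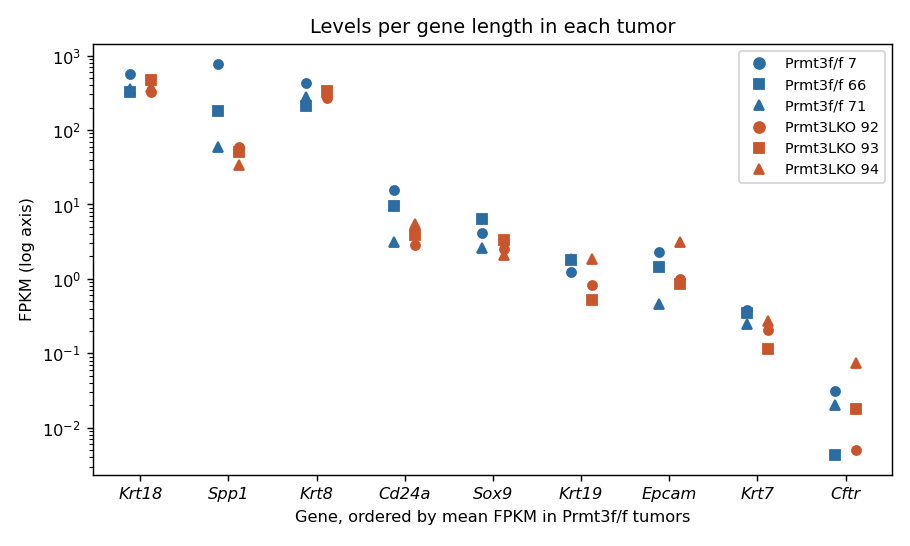
FPKM of each gene (log axis) in the 6 tumors, ordered by the mean of the Prmt3f/f tumors (blue) with Prmt3LKO tumors in orange and a marker for each replicate. Krt18, Krt8 and Spp1 form an upper tier, and Krt7 and Cftr lie lowest, with Spp1 between 58.6 and 781 FPKM in Prmt3f/f tumors and between 33.9 and 59.9 FPKM in Prmt3LKO tumors.

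How much each fitted change owed to 1 tumor differed between members. When tumors were left out 1 at a time, the log2 fold change stayed below 0 for Krt7, Krt19, Sox9, Spp1 and Cd24a and crossed 0 for Krt8, Krt18 and Epcam. The median over the 8 genes moved between -0.79 without Prmt3LKO tumor 94 and -0.31 without Prmt3LKO tumor 93. No member passed the limits in any of these fits.

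**Figure D3:**
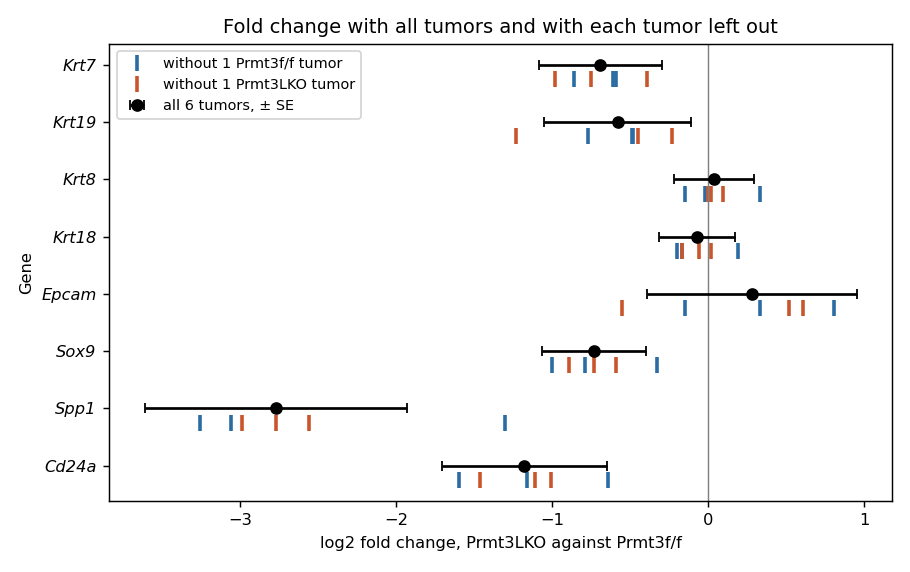
Log2 fold change of Prmt3LKO against Prmt3f/f for the 8 genes tested, as a black point with its standard error for all 6 tumors, and as ticks below it with 1 Prmt3f/f tumor (blue) or 1 Prmt3LKO tumor (orange) left out. The tick of Spp1 nearest 0, at -1.30, is the fit without Prmt3f/f tumor 7, and the ticks of Krt8, Krt18 and Epcam fall on both sides of 0.

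Set side by side, the profiles over the tumors were of several kinds. Spp1 and Cd24a were both highest in Prmt3f/f tumor 7 and second in tumor 66, and their distance was 0.89. Krt7 and Krt19 shared a low value in Prmt3LKO tumor 93, at -1.09 and -1.23 from their means on the log2 CPM scale, with a distance of 0.41. Epcam, Krt19 and Cftr were each highest in Prmt3LKO tumor 94, Krt19 only by 4.37 against 4.34 CPM in Prmt3f/f tumor 66. The distance of Epcam was 0.97 to Krt19 and 0.89 to Cftr. The pair furthest apart was Spp1 and Cftr, at 1.88. The range over the 6 tumors was wider than that of 95.8% of all genes tested for Epcam, 93.3% for Cd24a, 88.0% for Krt19, 85.5% for Krt7 and 84.9% for Sox9, but 61.6% for Krt8 and 46.8% for Krt18. Epcam, Krt19 and Krt7 rest on at most 127 reads in a tumor, and Krt8 and Krt18 on at least 8357.

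**Figure D4:**
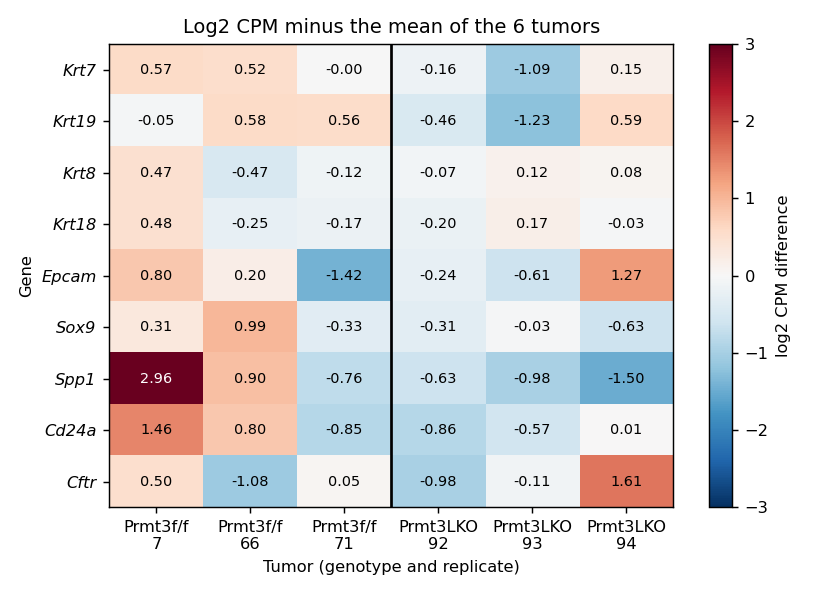
Log2 CPM of each gene in each tumor minus its mean over the 6 tumors, with a black line between the genotypes. Spp1 stands at 2.96 in Prmt3f/f tumor 7, Epcam at 1.27 and Cftr at 1.61 in Prmt3LKO tumor 94, and Krt8 and Krt18 are near 0 in most tumors.

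The genes whose profiles came closest to each member were looked up among 12781 genes with a mean of at least 1 CPM. Nearest to Krt8 were Nudt16 (distance 0.05), Tbce (0.057) and Cldn3 (0.063), and nearest to Krt18 were Jpt2 (listed as Hn1l, 0.057), Blvra (0.057) and Pdcd10 (0.059). March1, which the table lists in the form of a date, Btk and Tug1 came closest to Krt7, at 0.13 to 0.14. For Krt19 they were Efemp1 (0.14), Slc22a26 (0.16) and Cpm (0.18), and for Sox9 they were Aph1c (0.16), Ccnc (0.17) and Ptprs (0.18). Anxa3 (0.23), Col8a1 (0.24) and Clec10a (0.26) came closest to Cd24a, and Ttc12 (0.25), Tagln (0.31) and Fam83f (0.35) to Epcam.

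No gene followed Spp1 as closely as these genes followed the other members. Its nearest gene was Cyp2c40 at a distance of 0.48, followed by Snx20 (0.55) and Aldh1a2 (0.59). Cyp2c40 was at 39.4, 8.35 and 5.06 CPM in Prmt3f/f tumors 7, 66 and 71 and at 3.94, 5.64 and 3.17 CPM in Prmt3LKO tumors, and so it was also highest in tumor 7. These distances rest on 6 tumors and describe them only.

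Further genes of bile duct epithelium did not move in 1 direction. There were 32 tested genes among the 36 listed, 17 with a fold change below 0 and 15 above it, with a median log2 fold change of -0.056, and 0 were called. Bicc1, an RNA-binding protein of ducts and tubules, was at 45.0, 36.2 and 27.3 CPM in Prmt3f/f tumors and at 16.6, 22.9 and 20.8 CPM in Prmt3LKO tumors, lower in every one. Its log2 fold change was -0.85 (standard error 0.22, adjusted p = 0.592 in edgeR's quasi-likelihood test).

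Onecut2, a transcription factor of liver and duct development, was higher, at 14.0, 12.2 and 23.8 CPM in Prmt3f/f tumors and 27.7, 40.3 and 35.0 CPM in Prmt3LKO tumors. Its log2 fold change was 1.04 (standard error 0.28, adjusted p = 0.592 in the same test). Muc1, a mucin of the luminal surface, also did not overlap between the groups, at 0.831 to 1.21 and 1.31 to 2.21 CPM. Sctr, the secretin receptor that liver carries on cholangiocytes, was at 0 reads in Prmt3f/f tumor 71 and Prmt3LKO tumors 92 and 93 and at most at 0.508 CPM. The summed level of the list, 5492 to 8016 CPM in Prmt3f/f tumors and 3714 to 6534 CPM in Prmt3LKO tumors, was mostly Clu, which hepatocytes make too (4477 to 6401 and 2453 to 5468 CPM).

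Notch signaling drives duct fate in the liver, with Jag1 as a ligand and Hes1 as a target. Of 15 Notch genes tested 11 had a fold change below 0, 4 were above it and 0 were called. Hes1 was at 24.9, 27.6 and 22.2 CPM in Prmt3f/f tumors and at 16.9, 17.6 and 13.5 CPM in Prmt3LKO tumors. Its log2 fold change was -0.64 (standard error 0.17, adjusted p = 0.592 in edgeR's quasi-likelihood test). Jag1 was at 14.5, 15.9 and 7.10 against 8.17, 8.26 and 8.49 CPM, high in the same pair of tumors, 7 and 66, as Sox9 and Cd24a. The ligand Dll4 had the smallest p among those above 0, with a log2 fold change of 0.67 (adjusted p = 0.684 in the same test).

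YAP and TAZ, coactivators of the Hippo pathway that act on duct fate, and their targets made up 12 genes with a median log2 fold change of -0.072. Axl, a receptor kinase and target, had the smallest p (log2 fold change -0.40, adjusted p = 0.739 in the same test), and Yap1 was at 68.5 to 80.5 and 69.2 to 87.4 CPM. Cytokines and growth factors that accompany the ductular reaction were 13 tested genes, 12 of them below 0, with a median of -0.29. Ccl2, a monocyte chemokine, was at 10.7, 5.51 and 5.63 CPM in Prmt3f/f tumors and 2.74, 1.80 and 2.21 CPM in Prmt3LKO tumors (log2 fold change -1.69, standard error 0.33, adjusted p = 0.592).

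Receptors and matrix partners of osteopontin were 9 tested genes with a median log2 fold change of -0.07. Itga4, an integrin subunit of leukocytes that binds osteopontin, was at 13.0, 14.5 and 11.3 CPM in Prmt3f/f tumors and 5.54, 7.35 and 8.09 CPM in Prmt3LKO tumors (log2 fold change -0.88, standard error 0.20, adjusted p = 0.592 in edgeR's quasi-likelihood test). Cd44 was at 42.7, 22.8 and 26.3 against 18.7, 20.8 and 24.4 CPM, with its highest value in tumor 7 as for Spp1. Among 10 tested partners of keratin filaments the median was -0.12, and Vim and Plec had the smallest p in each direction, at log2 fold changes of -0.63 and 0.23 (adjusted p = 0.853 and 0.838).

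Progenitor and oncofetal genes, 13 tested, had a median log2 fold change of -0.17. H19, a fetal noncoding RNA, was at 201 CPM in Prmt3f/f tumor 7 and between 1.83 and 16.0 CPM in the other 5, the same tumor that was highest in Spp1 and Cd24a. Its log2 fold change was -3.15 (standard error 1.30, adjusted p = 0.743 in the same test). Afp, the fetal albumin-like protein, was instead highest in Prmt3LKO tumor 93, at 217 CPM against 44.8 to 88.9 CPM in the other 5. Stellate cell and fibroblast genes, 10 tested, all had a fold change below 0 with a median of -0.33, and their sums overlapped, at 375 to 933 and 407 to 674 CPM.

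In the lists of other cell types the gene with the smallest p in each direction was also looked up, and 0 genes of any list were called. Marco, a scavenger receptor of macrophages, was at 12.0, 37.2 and 18.3 CPM in Prmt3f/f tumors and at 4.11, 4.06 and 5.73 CPM in Prmt3LKO tumors (log2 fold change -2.28, standard error 0.41, adjusted p = 0.592), and Cd9, which duct cells carry too, had a log2 fold change of 0.13. Kap, a kidney androgen-regulated protein, was at 2.39 to 3.22 CPM in Prmt3f/f tumors and at 5.73 to 8.21 CPM in Prmt3LKO tumors (log2 fold change 1.35, standard error 0.23, adjusted p = 0.592). Umod and Slc34a1 also did not overlap, at log2 fold changes of 2.17 and 3.50 (standard errors 0.49 and 0.68). Both rest on few reads. Umod had 7, 8 and 6 reads in Prmt3f/f tumors and 35, 20 and 24 in Prmt3LKO tumors. Slc34a1 had 3, 3 and 2 against 14, 53 and 16 reads. Of all genes tested, 5.56% were likewise higher without overlap. The log2 fold changes were -1.07 for Csf3r of neutrophils, -1.27 for Hbb-bs and 0.29 for Alas2 of erythroid cells, -1.28 for Ms4a1 and 0.053 for Cd79b of B cells, and -2.19 for Upk3b of mesothelium. They were -0.60 for Timp1 of fibroblasts, -0.40 for Pck1 and 0.41 for Asgr1 of hepatocytes, 0.79 for Cela1 of the pancreas list and -0.16 for Sftpa1 of lung. Lgals4 of gut epithelium was at 2.95 to 10.1 and 2.06 to 4.67 CPM. In the lists above, Pdgfa stood at 0.36 among the growth factors, Itgb3 at 0.093 among the osteopontin receptors and Scd2 at 0.59 among the progenitor genes. The part of these cell types in the levels of the 9 members was not tested.

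Some members share their locus with another gene in GENCODE M21. Krt7 overlaps Gm671 and Krt8 overlaps Gm36026 on the opposite strand, and Cftr overlaps the antisense gene Gm15592, which had 0 reads, and the pseudogene Gm15595. Spp1 overlaps Gm42793 on the same strand, which had 31 reads in Prmt3f/f tumor 7, beside 88284 of Spp1, and 8 or fewer in the other 5. The use of strand in counting is not given in the sources used here, so reads of the pairs on opposite strands cannot be told apart. Gm42793 and Gm15595 lie on the same strand as Spp1 and Cftr, so strand could not part the reads of these pairs.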

How the data were processed

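RNA was sequenced from 3 tumors of Prmt3f/f mice and 3 tumors of Prmt3LKO mice. Per the submitters' processing notes, bcl2fastq 2.19, HISAT2 2.0.4 and StringTie 1.3.0 were used with GRCm38. The counting tool and its use of strand are not given in the sources used here. The authors deposited 1 table with a raw count for each of 34745 genes and tumor, not normalized. The FPKM values in it, also deposited by the authors, divide the count by gene length and total count. The gene lengths are not given in the sources used here, so levels compared between genes in FPKM depend on them. All value columns belong to these tumors, and 0 were left unused.

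Counts were filtered with filterByExpr (minimum count 10, minimum total 15), scaled by TMM and fitted with edgeR 4.0.16 (R 4.3.3), whose quasi-likelihood p-values were adjusted by Benjamini-Hochberg over all 13892 genes tested. Standard errors were taken from the fold change and the F statistic. Genes were called at an adjusted p under 0.05 and a fold change of 2 or more, or 0.5 or less. CPM used the TMM-scaled library size, and log2 CPM a prior count of 2. For single values, all 20 splits of the tumors were enumerated (exact permutation test, two-sided, p at least 0.1). Distances between profiles are root mean square differences of centered log2 CPM over the 6 tumors.

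The 9 members and the gene lists were written by hand with earlier results of these data known. All 9 members are named. From each list the gene with the smallest p in each direction is named, with at most 2 further genes that define its cell type, and for each tested member the 3 genes with the nearest profile. Muc1, Sctr, Clu, Jag1, Cd44, Afp, Gpnmb, Trem2, Fabp2 and the zero-count markers were named after their values were seen. One gene of the lists is not reported here. Alternatives were DESeq2 1.42.0, limma-voom (limma 3.58.1), edgeR's exact test, library sizes not scaled by TMM, a filter at 1 count in total, a filter at a mean of 1 CPM, log2(FPKM + 1) for the members, and each tumor left out in turn.

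On simulated data for this comparison with 13943 genes tested, 85.9% of 199 genes altered 4-fold were recovered by the same fit, beside 11 false calls. In the tumors themselves this fit called 0 of 13892 genes. Prmt3, the deleted gene, had an adjusted p of 0.592 in its quasi-likelihood test. The share recovered describes the simulated counts only, and the sensitivity for the members in these tumors was not tested. Of the listed genes 34267 are in GENCODE M21, 80.8% of them with the same coordinates. Intervals of counting error were not used, since the number of tumors limits the precision.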

Additional observations from a re-analysis of the deposited data

How the results depend on the processing

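The 0 members called by the quasi-likelihood test stayed 0 under all 12 alternatives, among them DESeq2, the exact test of edgeR and limma-voom. Over all genes the quasi-likelihood test called 0 genes, while DESeq2 called 44 genes lower and 10 higher in Prmt3LKO tumors, the exact test of edgeR 35 lower and 5 higher, and the fit with no filter beyond 1 count 2 lower. The cause was not tested. Of 104 member fold changes under an alternative, 98 kept their direction, 6 changed it and 0 were called. The 6 were Epcam at -0.15 without Prmt3f/f tumor 71 and -0.55 without Prmt3LKO tumor 94, Krt18 at 0.19 without Prmt3f/f tumor 7 and 0.02 without Prmt3LKO tumor 92, and Krt8 at -0.15 without Prmt3f/f tumor 66 and -0.023 without Prmt3f/f tumor 71. With single tumors left out, these 3 genes ranged from -0.55 to 0.81 (Epcam), -0.20 to 0.19 (Krt18) and -0.15 to 0.33 (Krt8). The adjusted p of Spp1 lay between 0.123 (exact test) and 1. Cd24a and Sox9 also had an unadjusted p under 0.05 in DESeq2 (0.0201 and 0.0436) and the exact test of edgeR (0.0294 and 0.0466). The same held in the quasi-likelihood fit with no filter beyond 1 count (0.0314 and 0.0404). In limma-voom their unadjusted p was 0.193 and 0.116. The share of all genes under 0.05 in these fits is not given here. On log2(FPKM + 1) the difference of Krt7 shrank to -0.15, as the pseudocount exceeds its level. The median of the members stayed between -0.79 and -0.31. No paired analysis was possible because the genotypes share no replicate number. Cftr, with 1 to 16 reads, could be fitted only without the filter. Its level and those of Krt7, Krt19 and Epcam are limited by depth.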

Other observations

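Prmt3f/f tumor 7, which was highest in Spp1, Cd24a, Krt8, Krt18 and Krt7, was also highest in 10 of the 32 tested further genes of bile duct epithelium. It was lowest in 6 of them, Onecut1 (4.57 CPM), Muc1 (0.831 CPM), Wfdc2 (1.43 CPM) and Lamb3 (1.43 CPM) among these, and Prmt3LKO tumor 94 was likewise highest in 10. The share of all genes tested that were highest in these tumors is not given here, so the counts do not single out duct genes. The genes named next were picked for high values in tumor 7. Tspan8, a surface tetraspanin, was at 484 CPM in tumor 7 and at 325 and 259 CPM in Prmt3LKO tumors 93 and 94, against 21.2 to 68.0 CPM in the other 3 tumors. Ly6d, a small anchored surface protein, was at 1243 CPM in tumor 7 and at 529 and 438 CPM in Prmt3LKO tumors 93 and 94, against 74.3 to 164 CPM in the other 3. The membrane protease St14 was at 45.0 CPM in tumor 7 and at 4.01 to 17.2 CPM in the other 5, with its next value in Prmt3LKO tumor 93. Krt5, a keratin of stratified epithelium, was at 23.3 CPM in tumor 7, at 11.1 CPM in Prmt3LKO tumor 93 and at 2.10 to 6.08 CPM in the other 4.

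Prmt3f/f tumor 7 and Prmt3LKO tumor 93 were the lowest pair in 9 of 15 hepatocyte genes, of which 3 are given here, picked with their values in view. In the other 6 they were not, and Apoa1 was highest in tumor 7, at 20100 CPM, with Alb at 131282 and 130162 CPM in the pair against 108202 to 164722 CPM in the others. Cyp2e1, a cytochrome of hepatocytes around the central vein, was at 166 CPM in Prmt3f/f tumor 7 and 244 CPM in Prmt3LKO tumor 93, against 1057 to 1330 CPM in the other 4. Tat, a tyrosine-degrading enzyme, was at 355 and 374 CPM in these 2 tumors and at 1271 to 1938 CPM in the others. Hpd, the next enzyme of that pathway, was at 154 and 139 CPM against 410.0 to 783 CPM. Krt8 and Krt18 had their highest and next highest values in tumors 7 and 93, whereas Spp1 was at 4075 CPM in the former and 265 CPM in the latter. The tumors belong to different genotypes, and these values are given as a description with no test. The share of all genes tested that were lowest in this pair is not given here.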
